A study of Mus musculus with 16 samples.

Results

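*Hox* genes encode homeodomain transcription factors that stand in clusters on separate chromosomes, ordered along each cluster much as they are expressed along the body axis, and genes at the same place in different clusters are paralogs. In the head their expression marks the hindbrain segments and the neural crest of the posterior arches. The crest of the first branchial arch, which supplies the mesenchyme of the mandibular molars, is known as *Hox*-negative, and its patterning rests on other homeobox genes of the *Dlx*, *Msx*, *Barx* and *Lhx* families.

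The *Hox* genes of the mandibular molar were taken as every gene that the platform annotation names *Hox* with a cluster letter from a to d and a number, read by a probe set that carries no other gene symbol. This gave 37 genes of the 19938 genes with a probe set of their own, and each of the 37 was read by 1 probe set. They comprised 10 *Hoxa*, 9 *Hoxb*, 9 *Hoxc* and 9 *Hoxd* genes. *Hoxb8* was read only by a probe set shared with *Hoxb7*, which averaged 4.80 (log2) and lay above 5 in 1 pool.

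The mutants were *Rsk2-/Y* males on a C57Bl6 background, in which the X-linked gene of the RSK2 kinase is inactivated by loss of an early exon. They were set against WT (*Rsk2+/Y*) littermate males of the same background. Mandibular molars were dissected at embryonic day 14.5, the cap stage, and each array received RNA from a pool of 4 tooth germs, with 8 *Rsk2-/Y* and 8 WT pools in all. The sample names fall into 2 series, AZN and ABH, each with 4 pools of either genotype. What the series letters stand for is not given in the labels. Which mutant germs would have gone on to an altered tooth row was not known at dissection. Pools are bulk tissue, so that fewer cells of a type and less RNA per cell cannot be told apart.

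All signals are RMA values on the log2 scale, so that a difference of 1 is a doubling, and the array medians lay between 6.74 and 6.94. Signals were compared between pools for one probe set at a time, and between genes only by counting which passed a fixed signal. All 9 dental mesenchyme and all 8 dental epithelium markers lay above 5 in every pool. The same held for all 18 skeletal muscle, 10 neuron and 6 endothelial markers, so that passing 5 does not tell which cells of a pool gave the signal. The pools AZN_MolairesMutant3 and ABH_14A had the highest means of the muscle list, at 9.23 and 8.89, against 7.17 to 8.50 in the other 14 pools. The *Rsk2* probe set (*Rps6ka3*) read 9.74 to 10.40 in *Rsk2-/Y* pools and 9.61 to 10.22 in WT pools. These ranges overlap, so the probe set does not check the genotype labels. Where its probes lie relative to the lost exon was not examined, and the cause of the overlap was not tested.

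A signal of 5, the minimum used here for a probe set to be tested, was passed by most *Hox* genes in the molar. Of the 37 genes, 27 lay above 5 in all 16 pools, 6 in some pools and 4 in none. The counts were close from pool to pool: 28 to 32 genes per *Rsk2-/Y* pool and 28 to 31 per WT pool. By series, the counts ran from 28 to 32 per AZN pool and from 28 to 31 per ABH pool. The highest count, 32, belonged to AZN_MolairesMutant3.

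The clusters were not even at 5, a signal that 80.9% of all probe sets with 1 symbol passed in every pool. All 9 *Hoxb* genes lay above 5 in every pool, as did 8 of the 9 *Hoxd* genes, against 5 of the 10 *Hoxa* and 5 of the 9 *Hoxc* genes. The *Hoxa* genes were *Hoxa4*, *Hoxa6*, *Hoxa7*, *Hoxa10* and *Hoxa13*. The *Hoxb* genes were *Hoxb1* to *Hoxb7*, *Hoxb9* and *Hoxb13*, and the *Hoxc* genes were *Hoxc8*, *Hoxc9*, *Hoxc10*, *Hoxc12* and *Hoxc13*. The *Hoxd* genes were *Hoxd1*, *Hoxd3*, *Hoxd4*, *Hoxd8* to *Hoxd11* and *Hoxd13*. This contrast depended on the signal chosen. The means of the *Hoxd* genes ran only from 5.22 to 6.01, and above 5.80 in every pool only *Hoxa* and *Hoxb* genes remained. Position along the clusters brought no such contrast at 5. For the anterior paralog groups 1 to 4, 8 of 11 genes passed 5 in every pool, and for groups 5 to 8 it was 7 of 10. For the posterior groups 9 to 13, whose genes pattern the lower trunk, the distal limb and the genital tubercle, it was 12 of 16. This too depended on the signal chosen. Above 5.80 in every pool, groups 1 to 4 kept *Hoxa4*, *Hoxb1*, *Hoxb2* and *Hoxb3*. Groups 5 to 8 kept *Hoxa7*, and groups 9 to 13 kept *Hoxb9*.

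**Figure D1:**
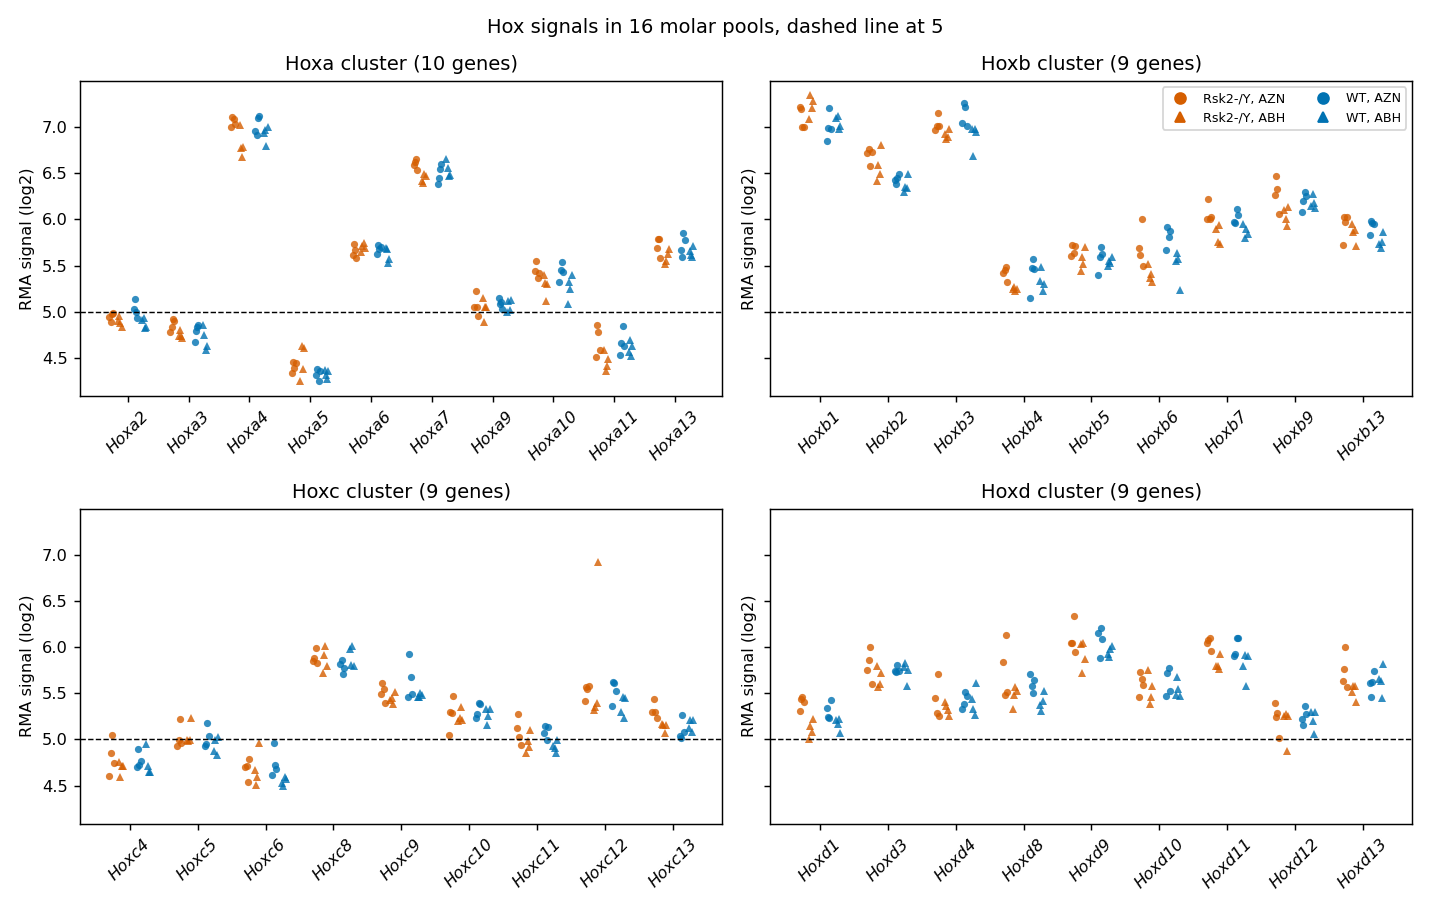
RMA signal (log2, vertical axis) of the 37 *Hox* genes in 16 molar pools, by cluster and by position along it. *Rsk2-/Y* pools stand left of WT pools for each gene, circles are AZN and triangles ABH pools, and the dashed line marks 5. Most genes form a tight band a little above the line, and the single triangle at 6.92 is *Hoxc12* in ABH_26A.

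Genes near the line were told apart from it by little. *Hoxd12* passed in 15 pools, with 4.87 in ABH_16A, and *Hoxa9* in 13. *Hoxc11* passed in 4 *Rsk2-/Y* and 3 WT pools, and by series in 6 AZN pools and 1 ABH pool. *Hoxc5* passed in 2 *Rsk2-/Y* and 3 WT pools. *Hoxa2* gives the second arch its identity, and its absence from the first arch is the best-known case of a *Hox*-negative territory. It passed in none of 8 *Rsk2-/Y* pools and in 2 of 8 WT pools, with 5.14 as its highest signal. By series, *Hoxa2* passed in 2 AZN pools and in no ABH pool. Its difference was -0.03 between genotypes (*Rsk2-/Y* minus WT) and 0.10 between series (AZN minus ABH), and neither was called. *Hoxc4* passed in AZN_MolairesMutant3 alone, at 5.05. The means over 16 pools nearest to the line were 5.02 for *Hoxc11* and 5.01 for *Hoxc5* above it and 4.93 for *Hoxa2* below it.

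The 4 genes that never passed 5 were *Hoxa3*, *Hoxa5*, *Hoxa11* and *Hoxc6*. *Hoxa3*, which patterns structures of the third arch, ran from 4.72 to 4.92 in *Rsk2-/Y* pools and from 4.59 to 4.86 in WT pools. *Hoxa5* ran from 4.25 to 4.63 in *Rsk2-/Y* pools and from 4.25 to 4.39 in WT pools. *Hoxa11* and *Hoxc6* stayed at or below 4.85 and 4.96.

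A signal of 5 was also passed by most homeobox genes that act outside the first arch. In every pool it was passed by 73.0% of the *Hox* genes, by 80.9% of all 21789 probe sets with 1 symbol, and by 13.7% of the 1023 olfactory receptor probe sets, a family used almost wholly in the nose. Of 35 homeobox genes that act in other regions, such as the pituitary, retina, pancreas and hypothalamus, 30 (85.7%) passed it in every pool. All 20 homeobox genes of the first arch did so. At 5.80, the 95th percentile of the olfactory receptor means, 6 *Hox* genes (16.2%) remained in every pool, against 19 of 35 genes of other regions (54.3%) and again all 20 first-arch genes. These 6 were *Hoxa4*, *Hoxa7*, *Hoxb1*, *Hoxb2*, *Hoxb3* and *Hoxb9*. Above 6 the first 5 of them were left. *Hoxb1* to *Hoxb3* stand next to each other at one end of the *Hoxb* cluster and act in the hindbrain.

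**Figure D2:**
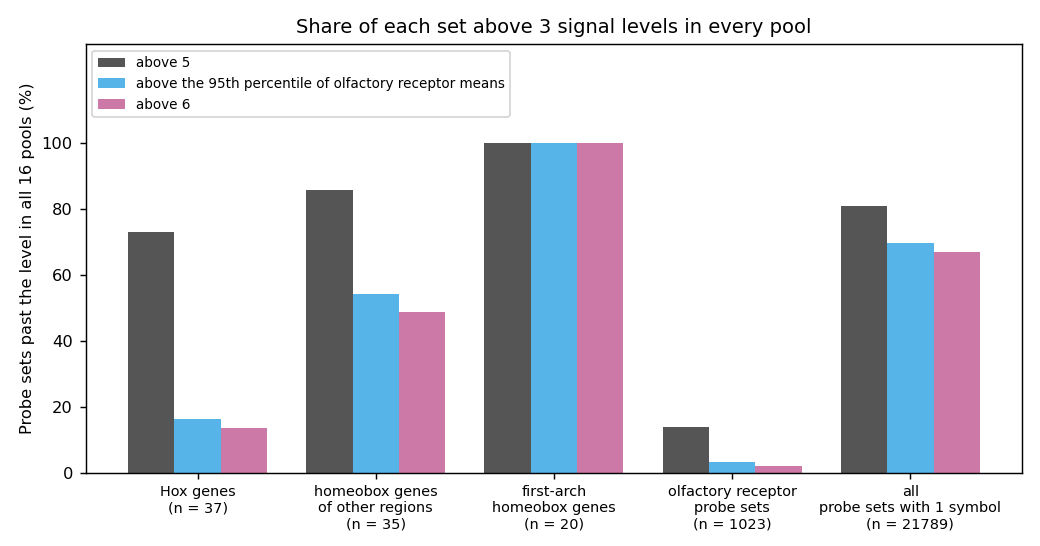
Share (%) of each set whose signal lay above 5, above the 95th percentile of olfactory receptor means (5.80) and above 6 in all 16 pools. The share of *Hox* genes was 73.0% at 5 and 13.5% at 6, while the first-arch homeobox genes stood at 100% throughout.

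The pools also differed little among themselves. The SD of a *Hox* gene over the 16 pools had a median of 0.13, and the median over all probe sets with 1 symbol was 0.13 as well. It lay above that level for 15 of the 37 genes. The largest SDs were those of *Hoxc12* (0.39), *Hoxb6* (0.22), *Hoxd8* (0.21) and *Hoxb2* (0.16), and the smallest was 0.06.

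Loss of *Rsk2* moved no *Hox* gene past the test. With an adjusted p under 0.1 and a fold change over 1.2 required, limma called none of the 33 genes that had a signal above 5 in at least 1 pool. The same test called 0% of all 18834 probe sets tested. At an unadjusted p under 0.05, 2 *Hox* genes were higher in *Rsk2-/Y* pools and none was lower, against 1.18% and 2.87% of all probe sets. The difference was above 0 for 16 genes and below 0 for 17, where 40.7% of all probe sets lay above 0, with a median of -0.00060 against -0.01 over all probe sets tested. That split was not stable, since 21 of the 33 lay above 0 with each array centred on its median and 11 without AZN_MolairesMutant1. For 31 of the 33 genes its size was under 0.15. No *Hox* gene had *Rsk2-/Y* signals that all lay outside the WT signals, and over the whole array 0.0159% of probe sets did.

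*Hoxb2*, a target of the hindbrain factor Egr2 and a gene of the facial motor nuclei, differed the most. Its signal was 6.42 at the lowest, 6.66 at the median and 6.81 at the highest in *Rsk2-/Y* pools, against 6.29, 6.40 and 6.49 in WT pools. Of the 8 *Rsk2-/Y* pools 6 lay above every WT pool. The other two, ABH_14A and ABH_16A, lay within the WT range, and 4 of the 8 WT pools lay above the lowest *Rsk2-/Y* pool. The means were 6.64 ± 0.14 in *Rsk2-/Y* and 6.40 ± 0.07 in WT pools (SD, n = 8 each). The difference of 0.24 (SE 0.06), a fold change of 1.18, stayed under 1.2-fold and did not pass the adjustment (limma, Benjamini-Hochberg adjusted p = 0.64). A two-sided exact permutation test of this gene alone gave p = 0.0017 over all 12870 arrangements and p = 0.00082 over the 4900 that keep the series, unadjusted for the other genes. Within the series the difference was 0.26 in AZN and 0.21 in ABH pools. In the AZN series all 4 *Rsk2-/Y* pools (6.58 to 6.76) lay above all 4 WT pools (6.38 to 6.49), as did 0.701% of all probe sets, and in the ABH series, where 2.81% did so, the genotypes of *Hoxb2* overlapped. With the series as a block the adjusted p of *Hoxb2* was 0.23.

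*Hoxb1*, its neighbour and the gene that specifies the fourth hindbrain segment, was the other gene under 0.05. Its lowest, median and highest signals were 7.0, 7.20 and 7.34 in *Rsk2-/Y* pools and 6.84, 7.0 and 7.20 in WT pools. The genotypes overlapped over much of their range, with 4 *Rsk2-/Y* pools above the highest WT pool. The difference was 0.14 (SE 0.06, limma adjusted p = 0.9997), and the two-sided exact permutation p was 0.040, unadjusted for the other genes. *Hoxb1* too was chosen for its large difference. *Hoxb3*, the next gene of the cluster, differed by -0.04.

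The promoter of *Hoxb1* is shown because *Hoxb1* is an autoregulated gene whose regulatory sites bind HOX and PBX proteins. It is given from 250 bases before to 50 bases after the start (RefSeq, GRCm38.p6, chr11:96365508-96365807, plus strand), with matches to TGATNNAT (a HOX and PBX site) and CCAAT on either strand in capitals. No match overlapped another. AGGTCA (a retinoic acid receptor motif) and TATAAA were searched on both strands too and had no match in it.
Hoxb1: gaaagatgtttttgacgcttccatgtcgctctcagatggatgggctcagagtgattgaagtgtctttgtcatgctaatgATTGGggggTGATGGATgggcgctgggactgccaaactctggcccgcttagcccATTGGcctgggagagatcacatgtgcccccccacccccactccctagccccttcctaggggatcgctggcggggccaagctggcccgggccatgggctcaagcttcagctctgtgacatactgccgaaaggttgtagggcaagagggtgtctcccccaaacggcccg
TGATNNAT was found in 8.85% and CCAAT in 37.4% of 32851 promoters of this length, and in 3 and 14 of the 23 promoters available for 21 of the 37 *Hox* genes. *Hoxb2*, *Hoxb6* and *Hoxc12* are named without a promoter.

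The second-largest difference, that of *Hoxc12*, came from a single pool. *Hoxc12*, a posterior gene, had signals of 5.31, 5.48 and 6.92 (lowest, median and highest) in *Rsk2-/Y* pools and 5.23, 5.45 and 5.62 in WT pools. ABH_26A alone held the value of 6.92, and the other 15 pools of either genotype lay between 5.23 and 5.62. It stood 1.47 above the median of the other pools (2.78-fold). This was the largest rise of any of the 21789 probe sets in that pool, of which 21 rose by more than 1. The other 36 *Hox* genes of ABH_26A lay between 0.29 below and 0.34 above theirs. With this pool the difference between genotypes was 0.19 (SE 0.17, adjusted p = 0.9997), and in the AZN series, which does not hold it, 0.00085.

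Among the other genes with large differences, *Hoxb6* gave -0.10 (SE 0.10), *Hoxd8* 0.10 (SE 0.10) and *Hoxc13* 0.10 (SE 0.06), with an adjusted p of 0.9997 for each. Without AZN_MolairesMutant3 *Hoxd8* gave 0.03 and *Hoxb6* -0.17, and *Hoxb6* gave -0.16 without ABH_25A and -0.07 without AZN_MolairesWT2. *Hoxc13*, a regulator of hair and nail keratins, ran from 5.07 to 5.44 in *Rsk2-/Y* pools and from 5.01 to 5.26 in WT pools. Its difference was 0.22 within AZN and -0.02 within ABH. Genotype differences had the same sign in both series for 17 of the 33 genes. The interaction of genotype and series was called for no *Hox* gene and for 0% of all probe sets, with 2 *Hox* genes, *Hoxa7* and *Hoxc13*, at an unadjusted p under 0.05 in the direction of a higher difference in AZN, against 3.87% of all (smallest adjusted p 0.73).

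**Figure D3:**
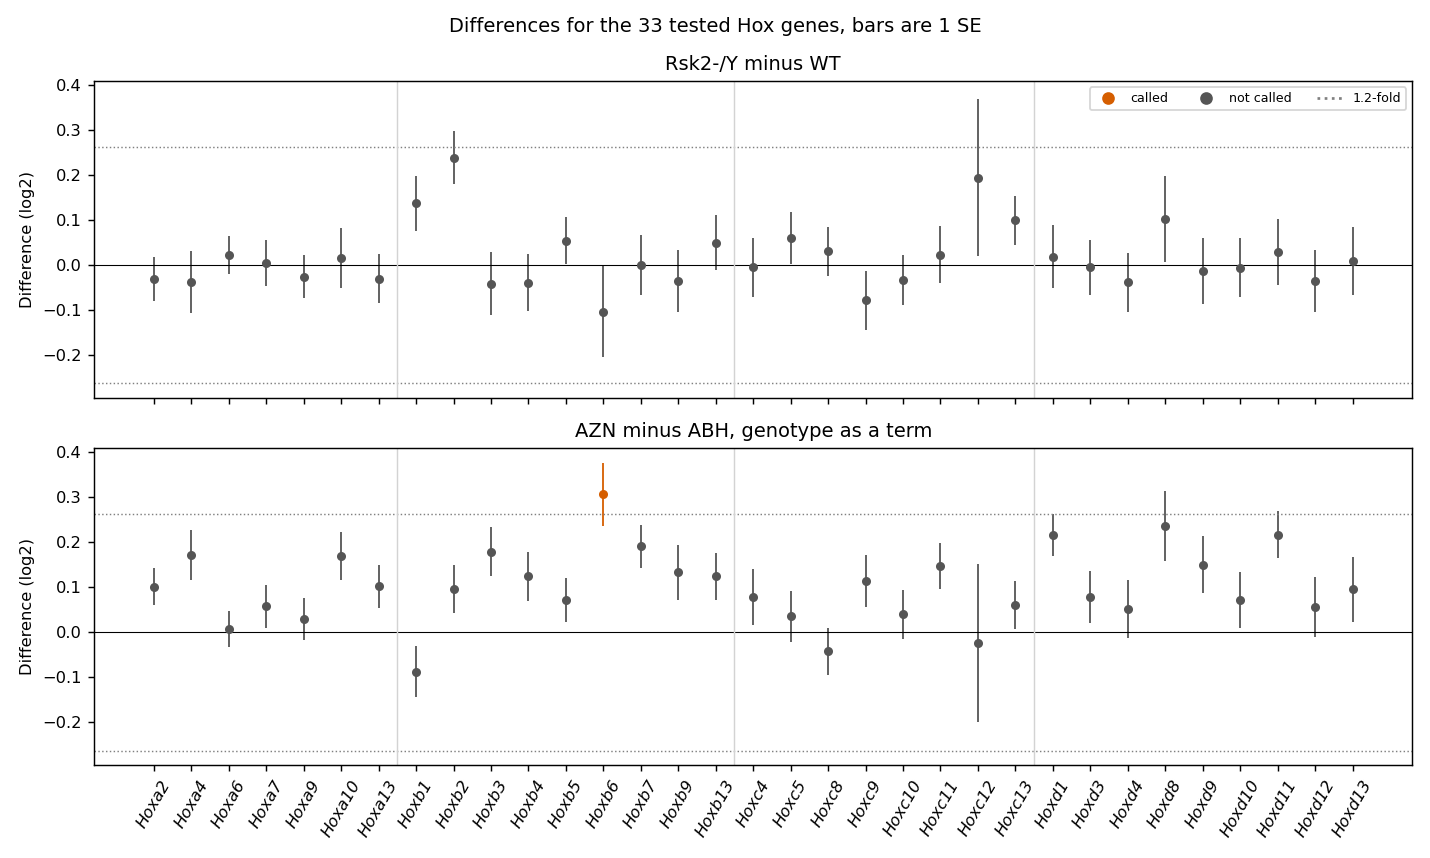
Differences (log2, vertical axis, bars are 1 SE) for the 33 tested *Hox* genes in cluster order, with *Rsk2-/Y* minus WT above and AZN minus ABH below. Dotted lines mark a fold change of 1.2. In the upper panel *Hoxb2* at 0.24 comes closest to the line, and in the lower panel 30 of 33 genes lie above 0 and *Hoxb6* at 0.31 is called.

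No cell type marker was called between genotypes on the same arrays, and 3 of the 10 marker lists had medians farther from 0 than the rest. The skeletal muscle list had a median difference of 0.47 (0.31 without AZN_MolairesMutant3), with 17 of 18 markers above 0 and list means of 7.17 to 9.23 in *Rsk2-/Y* pools and 7.22 to 8.50 in WT pools. The osteoblast list had a median of 0.27, with all 4 above 0 and list means of 10.55 to 11.88 in *Rsk2-/Y* pools and 10.44 to 11.27 in WT pools. The dental epithelium list had a median of -0.26, with all 8 below 0 and list means of 9.77 to 10.31 in *Rsk2-/Y* pools and 9.92 to 10.70 in WT pools. Its marker *Cldn6* was called without AZN_MolairesWT2, at -0.44. The medians of the other 7 lists lay between -0.10 and 0.05, with all 6 endothelial, 9 of 10 neuron and 4 of 5 erythroid markers below 0. The part of these markers in the *Hox* differences was not tested. Without AZN_MolairesMutant3 and ABH_14A, the pools with the highest muscle means, the difference of *Hoxb2* was 0.29 and no *Hox* gene was called.

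The AZN and ABH series differed far more than the genotypes. With genotype as a term, limma called 16.5% of all probe sets between them, 5.95% higher and 10.6% lower in AZN. Of the 33 *Hox* genes 1 was called higher in AZN and none lower. The difference lay above 0 for 30 of them, against 53.5% of all probe sets, with a median of 0.10 against 0.02. At an unadjusted p under 0.05, 15 *Hox* genes were higher in AZN and none lower, against 22.4% and 23.6% of all probe sets. An adjusted p under 0.1 at any fold change was reached by 14 of the 33, all higher in AZN, where 21.7% of all probe sets reached it higher in AZN and 44.8% in either direction. For 13 of the 14 the fold change was under 1.2. Of the homeobox genes of other regions 28 of 33 tested lay above 0, with a median of 0.10 and 2 called higher (*Dbx1* and *Mnx1*). Of the first-arch homeobox genes 15 of 20 lay below 0, with a median of -0.07, 7 called lower (5 to 9 with any 1 pool left out) and 1, *Pitx1*, higher.

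*Hoxb6*, a gene of the trunk and the limb, was the one called. Its lowest, median and highest signals were 5.50, 5.75 and 6.0 in AZN pools and 5.23, 5.46 and 5.64 in ABH pools. The series overlapped only between 5.50 and 5.64, and AZN lay higher in both genotypes, by 0.29 in *Rsk2-/Y* and by 0.32 in WT pools. The difference was 0.31 (SE 0.07), a fold change of 1.24 (limma, adjusted p = 0.0028). The two-sided exact permutation test gave p = 0.0022, and p = 0.00082 within genotypes. Both are unadjusted for the other genes, and the gene was chosen for its large difference. Without AZN_MolairesMutant3, which had the highest signal, the difference was 0.26 and its fold change fell under 1.2, with an adjusted p of 0.0045.

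*Hoxd1* and *Hoxb7* were the genes whose series did not overlap at all, at a background of 3.54% of probe sets with all AZN above all ABH pools. *Hoxd1* had 5.23, 5.37 and 5.46 in AZN pools and 5.01, 5.16 and 5.22 in ABH pools (lowest, median and highest), a difference of 0.22 (SE 0.05, adjusted p = 0.0020). *Hoxb7* had 5.96, 6.01 and 6.22 in AZN pools and 5.73, 5.87 and 5.95 in ABH pools, a difference of 0.19 (SE 0.05, adjusted p = 0.0047). Both stayed under 1.2-fold. Within *Rsk2-/Y* pools 6 of the 33 genes had all AZN above all ABH signals (12.3% of all probe sets), and within WT pools 5 (8.54%).

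*Hoxd8*, *Hoxd11* and *Hoxb3* completed the largest series differences. *Hoxd8*, at the centre of its cluster, ran from 5.48 to 6.13 with a median of 5.61 in AZN pools and from 5.31 to 5.57 with a median of 5.45 in ABH pools, a difference of 0.24 (SE 0.08, adjusted p = 0.025). Its highest signals were those of AZN_MolairesMutant3 (6.13) and AZN_MolairesMutant (5.84), and the other 14 pools lay at or under 5.70. *Hoxd11*, a gene of the forearm and the kidney, ran from 5.90 to 6.10 in AZN pools and from 5.57 to 5.92 in ABH pools, a difference of 0.22 (SE 0.05, adjusted p = 0.0039). *Hoxb3* ran from 6.96 to 7.26 in AZN pools and from 6.69 to 6.98 in ABH pools, a difference of 0.18 (SE 0.05, adjusted p = 0.015). The 3 genes below 0 were *Hoxb1* at -0.09, *Hoxc8* at -0.04 and *Hoxc12* at -0.02.

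**Figure D4:**
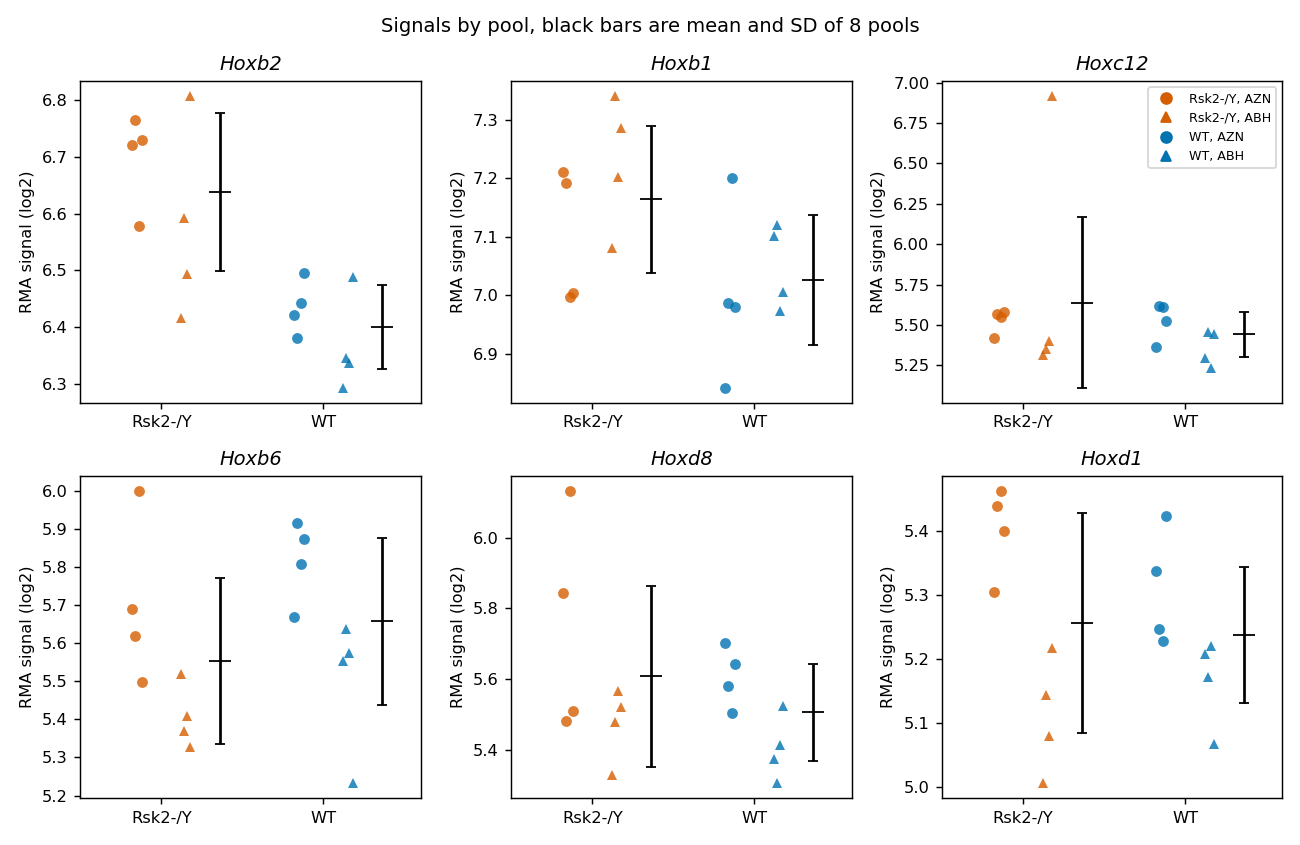
RMA signal (log2) of 6 *Hox* genes in each pool, *Rsk2-/Y* left of WT, with circles for AZN and triangles for ABH pools and black bars for the mean and SD of 8 pools. *Hoxb2* lies higher in *Rsk2-/Y* pools (mean 6.64 against 6.40), and *Hoxc12* is set by the pool at 6.92. *Hoxd1* parts the circles from the triangles, while for *Hoxb6* the circles lie higher as a group but overlap the triangles. The vertical axes do not start at 0 and differ between panels.

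The promoter of *Hoxd8* is shown for the gene with the widest range over pools after *Hoxc12* (RefSeq, GRCm38.p6, chr2:74704365-74704664, plus strand), with the same searches and matches to AGGTCA and CCAAT in capitals.
Hoxd8: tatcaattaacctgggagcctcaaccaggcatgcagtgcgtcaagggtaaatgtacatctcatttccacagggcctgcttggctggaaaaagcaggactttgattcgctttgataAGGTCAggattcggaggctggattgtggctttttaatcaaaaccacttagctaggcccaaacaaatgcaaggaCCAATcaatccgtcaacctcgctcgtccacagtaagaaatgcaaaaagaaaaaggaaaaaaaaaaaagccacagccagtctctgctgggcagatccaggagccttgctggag
AGGTCA was found in 16.3% of all promoters of this length and in 7 of the 23 *Hox* promoters. TATAAA and TGATNNAT were not found in it, against 13.6% and 8.85% of all promoters.

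Cell type markers differed between the series as well. In AZN pools 7 of 18 skeletal muscle markers were called higher (median 0.54, and 16 called without ABH_14A), with list means of 7.70 to 9.23 against 7.17 to 8.89 in ABH pools. Of the osteoblast markers 2 of 4 were higher, and 1 without AZN_MolairesMutant3, ABH_14A or ABH_16A (median 0.25, list means of 10.84 to 11.88 in AZN and 10.44 to 11.12 in ABH pools). Of the dental epithelium markers 3 of 8 were lower and 1 higher (median -0.20, list means of 9.77 to 10.57 in AZN and 10.15 to 10.70 in ABH pools). Of the neuron, Schwann and glial, and erythroid markers, 3 of 10, 2 of 5 and 2 of 5 were higher, with medians of 0.12, 0.18 and 0.45. Without ABH_13A 5 of 5 erythroid markers were called, and without AZN_MolairesMutant4 their median was 0.21. All of these markers lay above 5 in every pool. The other 4 marker lists had 5 calls in all, 1 higher and 4 lower. Their part in the *Hox* differences was not tested. AZN_MolairesMutant3 had the highest muscle and osteoblast means, the lowest epithelium mean and the highest signal of 11 of the 37 *Hox* genes. ABH_14A, with a muscle mean of 8.89, had the highest signal of 0 *Hox* genes and the lowest of 4. AZN_MolairesMutant1, with a muscle mean of 8.35, had the highest signal of 8. Without AZN_MolairesMutant3 and ABH_14A, 29 of 32 tested *Hox* genes lay above 0, with a median of 0.09, and 1 was called.

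The genes that act with or on *Hox* genes gave the following. HOX proteins bind DNA with cofactors of the TALE class, and all 8 that were measured lay above 5 in every pool. None was called between genotypes, with a median difference of -0.05. The largest were *Pknox2* (8.25 ± 0.30 in *Rsk2-/Y* and 7.98 ± 0.16 in WT pools, a difference of 0.27) and *Meis2* (11.10 ± 0.12 and 11.28 ± 0.30, a difference of -0.18; SD, n = 8 each). None was called between the series.

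The Polycomb and Trithorax proteins keep *Hox* genes silent or active through chromatin, and all 28 measured genes lay above 5 in every pool. None was called between genotypes (median -0.04), and the largest differences were *Cbx8* at -0.13 and *Cbx2* at -0.11. Between the series *Rbbp4* was called higher in AZN (0.46), and *Ezh1* (-0.36), *Jarid2* (-0.46), *Phc3* (-0.55) and *Kdm6a* (-0.52) lower. *Rbbp4*, called higher, and *Ezh1*, *Jarid2* and *Phc3*, called lower, belong with Polycomb, whereas *Kdm6a* removes the Polycomb mark.

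Of 11 upstream regulators measured, 10 lay above 5 in every pool and *Cdx4*, a posterior activator of *Hox* genes, in none. None was called between genotypes. The largest differences were those of *Egr2*, the activator of *Hoxb2* in the hindbrain, with 8.92 ± 0.65 in *Rsk2-/Y* and 8.46 ± 0.61 in WT pools (0.46, limma adjusted p = 0.9997), and of *Aldh1a2*, which makes retinoic acid (0.15). *Egr2* gave 0.28 without AZN_MolairesWT1, and *Aldh1a2* gave 0.08 without AZN_MolairesWT3. Between the series *Gdf11* alone was called, higher in AZN by 0.30, and without AZN_MolairesMutant3 it was not called (0.23). The first-arch homeobox genes and those of other regions had no call between genotypes either, and their largest differences were *Dlx4* (-0.21) and *Pitx1* (-0.17), and *Dbx1* (0.22) and *Tlx1* (-0.14). Without AZN_MolairesMutant3 *Dbx1* gave 0.05, and without ABH_25A *Dlx4* gave -0.14.

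Genes that border or lie inside the clusters were measured at 17 probe sets, of which 12 lay above 5 in every pool and 5 in none. None was called between genotypes, with *Mtx2*, beside the *Hoxd* cluster, at 0.21 and *Skap1*, beside the *Hoxb* cluster, at -0.06. Between the series *Cbx5*, beside the *Hoxc* cluster, was lower in AZN by 0.61, and *Evx2*, beside *Hoxd13*, differed by 0.26 without being called (called in 6 of the 16 fits with 1 pool left out). The 5 that stayed below 5 were *Hottip* and the probe sets of *Mir10a*, *Mir10b*, *Mir196a-1* and *Mir196a-2*.

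The microRNAs of the clusters are shown because they fall into families that share a seed, lie between *Hox* genes and repress *Hox* messages. The seed, bases 2 to 8, is in capitals (RefSeq, GRCm38.p6).
mmu-miR-10a-5p: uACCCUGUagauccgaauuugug
mmu-miR-10b-5p: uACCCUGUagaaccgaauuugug
mmu-miR-196a-5p: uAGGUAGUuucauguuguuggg
mmu-miR-196b-5p: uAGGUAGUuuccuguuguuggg
The miR-10 pair lies in the *Hoxb* cluster on chromosome 11 and the *Hoxd* cluster on chromosome 2. *Mir10a* read 3.67 ± 0.08 in *Rsk2-/Y* and 3.65 ± 0.06 in WT pools, and *Mir10b* 3.46 ± 0.04 in *Rsk2-/Y* and 3.48 ± 0.10 in WT pools (SD, n = 8 each). In the miR-196 family *Mir196a-1* stayed below 5, at 4.22 ± 0.17 in *Rsk2-/Y* and 4.24 ± 0.08 in WT pools. *Mir196b*, of the *Hoxa* cluster on chromosome 6, lay above 5 in every pool, at 5.37 ± 0.19 in *Rsk2-/Y* and 5.37 ± 0.05 in WT pools. The labelling was made for long transcripts, so these signals do not measure the mature microRNAs.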

How the data were processed

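RNA of 8 *Rsk2-/Y* and 8 WT pools was hybridised to Affymetrix Mouse Gene 1.0 ST arrays. The authors deposited log2 signals, made with RMA (background correction, quantile normalization and summary per probe set) in Affymetrix Expression Console 1.3.1.187 per the submitters' processing notes, and a genome build is not given in the sources used here. RMA sets all arrays to one distribution, so values are relative to each array and small changes are compressed near background. Of 35556 probe sets, 21789 had 1 gene symbol, 1621 had several and 12146 had none in the platform annotation.

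Genotypes and series came from the sample labels. limma 3.58.1 (R 4.3.3) was fitted to the 18834 single-symbol probe sets above 5 in at least 1 pool, with Benjamini-Hochberg adjustment over all of them and calls at an adjusted p under 0.1 with a fold change over 1.2. It was also run on simulated data, and the outcome of that run is not used here. p-values measure the spread between pools, and the number of arrays limits precision. Members and gene lists were chosen with earlier results of these data known. Genes named one by one were those above 5, the 6 largest differences in either comparison, the 4 largest SDs and any called, and in the other lists the 2 largest genotype differences and any called. Of 222 listed genes 197 had a probe set. Alternatives changed the signal minimum, filter, centring, weights, block, samples and test.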

Additional observations from a re-analysis of the deposited data

Results flagged for a closer look

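In the 74 groups of 8 pools formed by 37 *Hox* genes and 2 genotypes, 3 held a pool that lay apart from the other 7 by more than Dixon's 95% limit, where chance alone gives about 3.7. *Hoxc12* read 6.92 in ABH_26A, and the next *Rsk2-/Y* pool read 5.58. *Hoxd4* read 5.70 in AZN_MolairesMutant3, and the next *Rsk2-/Y* pool read 5.44. *Hoxd3* read 5.58 in the WT pool ABH_13A, and the next WT pool read 5.74. The causes were not tested.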

How the results depend on the processing

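The number of *Hox* genes above background depended on where it was set: 27 of 37 passed 5 in every pool, 34 passed 4.5, 32 the 20th percentile of all values (4.79), 6 the 95th percentile of olfactory receptor means (5.80) and 5 passed 6. It was 25 with each array centred on its median, 27 without ABH_14A and AZN_MolairesMutant3, and 27 to 28 with any 1 pool left out, the last 2 chosen after seeing the data. Taking another probe set of a gene changed nothing because each gene had 1.

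No *Hox* gene was called between genotypes under any of 28 alternatives, and *Hoxb2* kept a difference of 0.21 to 0.29 with adjusted p of 0.23 to 1. The number above 0 between genotypes ran from 11 to 21 of 33 with 1 pool left out, and was 21 with each array centred, 22 in AZN pools alone and 29 in the replicate block below. Over the whole array the genotype count of 0 became 10 without AZN_MolairesWT2 (WT replicate 6), 4 in ABH pools alone and 1 with the series as a block. An equal-variance t-test gave 2 *Hox* genes under 0.05 and 0 after Benjamini-Hochberg adjustment. *Hoxc13* turned to -0.018 in ABH pools alone. The AZN names share 2 numbers between genotypes, whose pools did not deviate together (correlations -0.03 and -0.01). With them as a replicate block, over 4 pools, *Hoxb6* turned to 0.071 and 0 *Hox* genes were called. Between the series, 0 to 2 *Hox* genes were called with 1 pool left out: 0 without AZN_MolairesMutant3, and 2 without AZN_MolairesMutant1 or AZN_MolairesMutant4, where *Hoxd8* at 0.27 joined *Hoxb6*. It was 2 in *Rsk2-/Y* pools alone and 0 with a mean signal over 6, which left 7 *Hox* genes and not *Hoxb6*. In the alternatives that tested 32 or more *Hox* genes, the lowest number above 0 was 27 of 32, in WT pools alone. The highest was 33 of 37, without the filter on dim probe sets. With each array centred the number was 30 of 33. The other gene lists were refitted with 1 pool left out after seeing the data.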
